A study of Arabidopsis thaliana with 12 samples.

Results

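The 196 probe sets described here were at least 1 log2 unit higher in the abscisic acid (ABA) deficient Arabidopsis mutant aba3-1 than in wild type (wt) in both numbered pairs of arrays. A log2 unit is a 2-fold difference in signal. They were chosen by these measured differences from 11561 tested probe sets, those with a log2 signal above 4 on at least 2 of the 12 arrays. In all, 212 tested probe sets (1.83%) met the difference, and 16 of these were set aside by the rule that chose the members. The aba3-1 and wt arrays chose the members, so every value set against either group is a description with no test. Tests compared only the suppressor lines, though the aba3-1 and wt arrays also entered the estimate of spread behind each p-value. The line arrays did not enter the difference that chose the members. They did enter the level filter, and 12 of the 196 members passed it only with the help of line arrays. The other 184 were above 4 on at least 2 of the aba3-1 and wt arrays alone.

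The arrays were Affymetrix ATH1 GeneChips hybridised with RNA of aerial parts, 2 arrays for each of 6 groups. The groups are the lines S58-2, S15-118, S14-150 and S82-2, their parent aba3-1, and wt. The submitters screened for suppressors of aba3-1 by infrared thermography, looking for plants whose leaves were no longer cold, and describe 4 recessive mutants. The 4 lines are taken to be these mutants, which carry aba3-1 and a further mutation, although no label says so of each line. The wt accession is not given in the labels used here. All plants were untreated and stood on compost at 21 °C, under 8 h of light and 16 h of darkness a day.

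ABA is the plant hormone that closes stomata when water is short. ABA3 is a molybdenum cofactor sulfurase, needed by the aldehyde oxidase that makes the last step of ABA synthesis, and leaves that cannot close their stomata are cooled by transpiration. ABA also acts against salicylic acid signalling in leaf defence. In that defence, surface and intracellular receptors lead to calcium influx, to EDS1-type lipase-like proteins, to the signals salicylic acid and pipecolic acid, and to secreted antimicrobial proteins. Jasmonate and ethylene control a second branch, of which plant defensins are the classical readout.

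The median signal lay between 3.58 and 3.73 log2 units on all 12 arrays. The leaf gene RCA, Rubisco activase, had group means of 12.91 to 13.27, and it was the only leaf marker of 8 with a paired probe set. PYK10, a beta-glucosidase of roots, had group means of 5.45 in S58-2, 6.93 in S15-118, 6.18 in S14-150, 6.41 in S82-2, 5.54 in aba3-1 and 4.84 in wt. Its part in the results below was not tested. A control probe set for 25S ribosomal RNA read 3.77 on S58-2 array 1 and 7.19 to 9.78 on the other 11 arrays. The sample of S58-2 array 2 had the least extracted RNA of the 12, at 5.1 µg. Whether either bears on the results below was not tested. In bulk tissue, fewer cells of a type and less RNA per cell cannot be told apart.

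Among the 196 members, 76 were paired with exactly 1 gene in the annotation at hand, 1 with several genes and 119 with none. The 76 genes are distinct loci, and a gene without a symbol is named here by its locus. They lie on all 5 chromosomes of the TAIR10.1 assembly, with 23, 7, 24, 8 and 14 genes on chromosomes 1 to 5. AT3G25600 and AT3G25610 have no coding gene between them. In 4 further pairs of neighbouring members 3 or 5 coding genes lie between: AT1G26380 and AT1G26420 (3), both berberine bridge enzyme-like oxidases, AT3G13910 and AT3G13950 (3), AT3G47480 and AT3G47540 (5), and AT5G52750 and AT5G52810 (5). Of the probe sets, 10 carry the suffix s and 1 the suffix x, which mark probes shared with other transcripts.

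The members were mostly dim in wt. Their mean signal in aba3-1 had a median of 5.79 and a range of 3.70 to 11.23, against a median of 3.86 and a range of 2.19 to 8.75 in wt. In wt 106 of them averaged under the level of 4, and 71 of the 196 passed that level on both wt arrays. The mean of the paired aba3-1 minus wt differences had a median of 1.77 log2 and ran between 1.04 and 3.80, with 73 members at 2 or above. The difference was the larger one in pair 1 for 134 members, with medians of 1.92 in pair 1 and 1.64 in pair 2. By the mirrored rule 54 tested probe sets were lower in aba3-1. At the edge of the rule, AT5G42830, AT3G16530 and GLR1.4 lay just inside, with smaller differences of 1.00 each. RHF1A (0.99), AT4G01700 (0.99) and AT2G01540 (0.95) lay just outside.

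**Figure D1:**
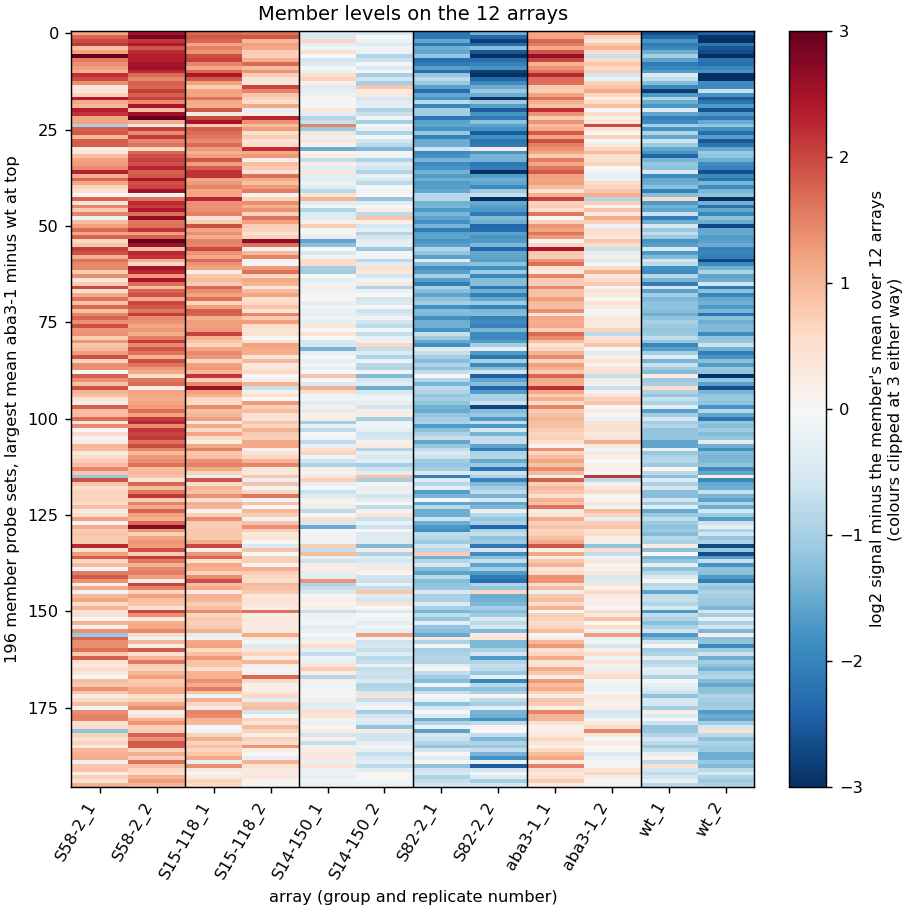
Log2 signal of the 196 members (rows) on the 12 arrays (columns), each minus the member's mean over the 12 arrays (red above, blue below, colours clipped at 3), with the lines S58-2, S15-118, S14-150 and S82-2 before aba3-1 and wt. The S82-2 and wt columns are low for most members, and the S58-2 and S15-118 columns are high.

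The 2 members with the largest difference have no gene name here. Probe set 258277_at, singled out after its values were seen, read 6.29 and 6.52 in aba3-1 against 2.51 and 2.71 in wt, a mean difference of 3.80. Probe set 256933_at, also singled out afterwards, read 6.56 and 6.09 in aba3-1 against 3.02 and 2.43 in wt, a mean difference of 3.60. Both wt readings lay far under the level of 4, so the size of these differences rests on signal near background.

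Among named genes the largest difference belonged to AT5G55450, of the lipid-transfer protein family. It read 9.77 and 7.90 in aba3-1 against 7.36 and 4.78 in wt, so the second array of aba3-1 was little above the first of wt, while each paired difference was above 2. AT1G43910, an AAA-type ATPase, read 6.71 and 6.77 in aba3-1 against 3.99 and 3.99 in wt. AT5G17760, another AAA-type ATPase, read 7.06 and 6.48 in aba3-1 against 4.12 and 4.09 in wt. The replicates of both ATPase genes lay close together and their groups were far apart.

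Hsp70-2, a cytosolic heat shock protein, read 7.28 and 6.78 in aba3-1 against 4.73 and 4.04 in wt. AT3G13610, known as F6'H1, the hydroxylase that commits phenylpropanoids to the coumarin scopoletin, read 5.56 and 4.51 in aba3-1 against 2.62 and 2.56 in wt. AT1G13470 read 7.99 and 6.01 in aba3-1 against 5.44 and 3.53 in wt. Its groups did not overlap, but the spread within each was close to 2 log2.

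Across the 4 lines the members formed a graded pattern. The median member stood 2.44 log2 above wt in S58-2, 2.00 above wt in S15-118, 0.97 above wt in S14-150 and 0.02 below wt in S82-2, beside 1.77 in aba3-1. The median over all tested probe sets was between -0.04 and 0.01 in these 5 differences, which share the wt arrays. The counts of members at least 1 log2 above wt were 190 in S58-2, 192 in S15-118, 93 in S14-150 and 5 in S82-2. Set against aba3-1, whose arrays these 4 differences share, the median member was 0.62 higher in S58-2, 0.23 higher in S15-118, 0.83 lower in S14-150 and 1.87 lower in S82-2. S82-2 was nearer wt than aba3-1 in 188 of 196 members, S14-150 in 75, S58-2 in 4 and S15-118 in 1.

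The place of S58-2 relative to aba3-1 differed between its arrays. The median member of S58-2 minus aba3-1 was 0.06 in pair 1 and 1.21 in pair 2. For S15-118 the same medians were 0.13 and 0.38, for S14-150 -1.06 and -0.64, and for S82-2 -2.12 and -1.61. Array 1 was the higher array in 54 of 196 members in S58-2, but in 113 to 161 members in each of the other 5 groups.

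**Figure D2:**
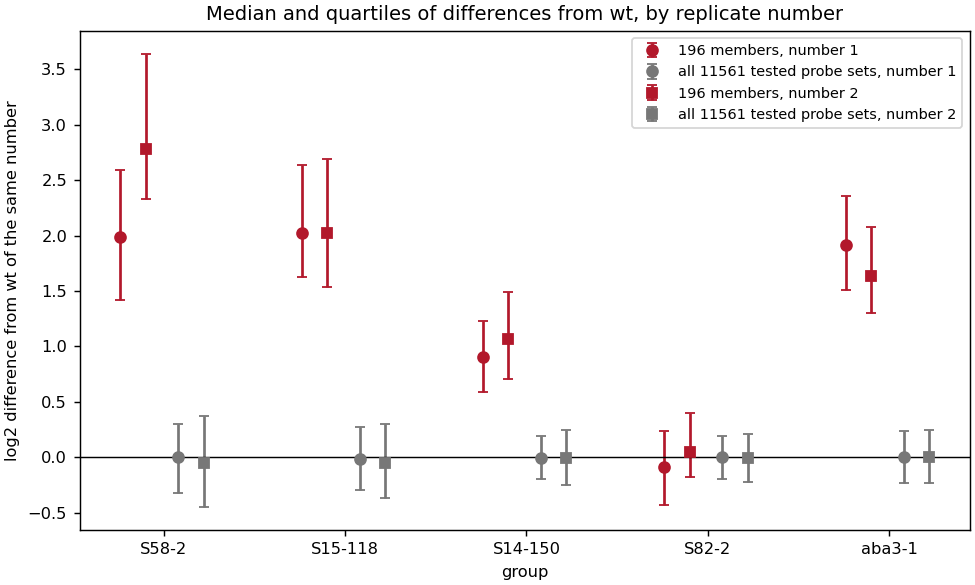
Median log2 difference from wt of the 196 members (red) and of all tested probe sets (grey), for each line and for aba3-1, in the 2 pairs of equally numbered arrays (circle 1, square 2). Bars span the quartiles. S82-2 lies near 0 in both pairs, S14-150 near 1, and S58-2 and S15-118 near 2 or above.

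The order among the lines does not use the aba3-1 and wt arrays, although the line arrays entered the level filter. S82-2 was the lowest of the 4 lines in 189 of 196 members, against 28.6% of all tested probe sets, and in 177 of the 184 that passed the level filter without line arrays. Within each array number S82-2 was the lowest line in 188 members, against 26.1% of tested probe sets on array 1 and 27.2% on array 2. S82-2 and S14-150 were both below S15-118 and S58-2 in 190 members, against 21.9% of tested probe sets. The step between S15-118 and S58-2 rested on array 2. S58-2 had the highest mean of the 4 lines in 163 members, against 25.8% of tested probe sets. It was the highest line in 82 members on array 1 and in 180 on array 2, against 27% and 28.9% of tested probe sets. The full upward order of S82-2, S14-150, S15-118 and S58-2 held in the means of 158 members, against 10.6% of tested probe sets. On array 1 alone it held in 78 members and on array 2 alone in 176, against 7.21% and 12.2% of tested probe sets. In 153 members both S82-2 arrays lay below all 6 arrays of the other lines, and in 0 members above them all. The share with both S82-2 arrays lowest was 7.37% over all tested probe sets.

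The differences between lines were tested with limma over all 12 arrays, with Benjamini-Hochberg adjustment over the 11561 probe sets and a call at an adjusted p under 0.05. The replicate numbers pair the arrays across groups, so each count is given without and with the number as a block. S58-2 was higher than S82-2 in 112 members, and in 185 with the block. The share called higher over all tested probe sets was 2.22%, and 8.42% with the block. S15-118 was higher than S82-2 in 71 members, and in 182 with the block, against 1.13% and 5.89% of tested probe sets. The median member difference was 2.56 for S58-2 minus S82-2 and 2.22 for S15-118 minus S82-2. The medians over all tested probe sets lay within 0.05 of 0. The members' median signal was 4.06 on S82-2 array 1 and 3.79 on S82-2 array 2. For many members the size of these differences therefore rests on S82-2 signal near or under the level of 4.

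S14-150 was called higher than S82-2 in 0 members without the block and in 53 members with it. The shares called higher over all tested probe sets were 0.00865% and 0.969%. Without the block 89 members had an unadjusted p under 0.05, beside 508 of the 11561 tested probe sets. The median member was 1.04 log2 higher in S14-150 than in S82-2, and it was above 0 in 189 members. S58-2 was higher than S14-150 in 7 members without the block and in 133 with it, against 0.121% and 3.54% of tested probe sets. Among the 184 members that passed the level filter without line arrays, these counts were 5 and 125. With the block 1 member was lower in S58-2, the probe set 267034_at, with a log2 difference of -0.92. S15-118 was higher than S14-150 in 1 member, 256012_at, and in 34 with the block, against 0.0519% and 0.502% of tested probe sets. Among the 184 members that passed the level filter without line arrays, the counts for S15-118 and S14-150 were 0 and 32. The call of 256012_at thus partly follows from that filter.

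S58-2 and S15-118 could not be separated in most members. Without the block 0 members were called, and 0% of tested probe sets were called higher. An unadjusted p under 0.05 was found in 16 members, beside 262 of the 11561 tested probe sets. With the block 2 members were higher in S58-2, 255341_at and 254252_at, against 0.104% of tested probe sets. Of these, 254252_at passed the level filter only with the help of line arrays, so its call partly follows from that filter. Among the 184 members that passed without line arrays, 1 was called with the block. The median member difference was 0.37 log2 over both arrays, -0.07 between the arrays numbered 1 and 0.80 between those numbered 2. Without the block it was 0.12 without S15-118 array 2, 0.13 without S58-2 array 2, and 0.59 without S15-118 array 1. With the block it was -0.05 without S58-2 array 2 and 0.77 without S58-2 array 1. The direction between these lines was therefore not settled for the median member. An F test over the 4 lines called 69 members, and 182 with the block, against 1.20% and 11.0% of tested probe sets. No member was called lower in the first line of any of the 6 pairs without the block. Such calls were rare over all 11561 tested probe sets too, so their absence says little about the members. There were 61 for S58-2 minus S82-2, 28 for S15-118 minus S82-2 and 2 for S14-150 minus S82-2. There were 1 for S58-2 minus S14-150, 0 for S15-118 minus S14-150 and 2 for S58-2 minus S15-118.

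The counts depended on single arrays. Without the block, leaving out S82-2 array 1 left 29 calls between S58-2 and S82-2 among the members, beside 0.415% of tested probe sets. Leaving out S15-118 array 1 left 1 call between S15-118 and S82-2, beside 0.0173% of tested probe sets. With the block, the lowest counts on leaving out any 1 line array were 165 and 130 for these 2 pairs, beside 6.0% and 3.39% of tested probe sets. The blocked counts that involve S14-150 were less stable. There were 0 calls left between S14-150 and S82-2 without S82-2 array 1, beside 0.0692% of tested probe sets. Without S14-150 array 1, 22 calls were left between S58-2 and S14-150 and 0 between S15-118 and S14-150, beside 0.329% and 0.0346% of tested probe sets. Of the 9 differences between lines that the naming rule picked, 2 stayed called without the block when S82-2 array 1 was left out and 1 when S82-2 array 2 was left out.

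**Figure D3:**
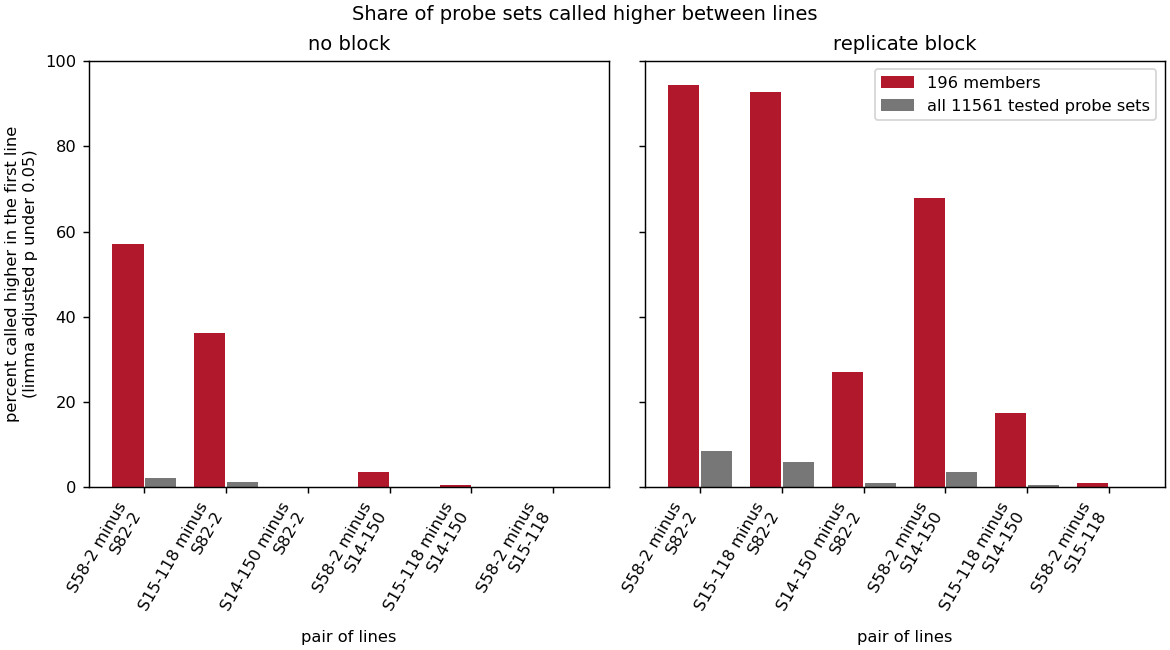
Percent of the 196 members (red) and of all tested probe sets (grey) called higher in the first line of each of the 6 pairs of lines (limma, adjusted p under 0.05), without the block on the left and with it on the right. Without the block the members' bars reach 57.1% for S58-2 minus S82-2 and 36.2% for S15-118 minus S82-2, beside grey bars of 2.22% and 1.13%.

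Split by the mean over all 12 arrays, 53 of the 98 brighter members and 59 of the 98 dimmer ones were called between S58-2 and S82-2. Their median differences were 2.70 and 2.37. Over all tested probe sets 2.75% were called in this pair, and 16.2% with the block. The mean includes the arrays under test, so a brighter member may still be dim in S82-2. Whether low signal there shaped the calls was not tested. Of the 76 members with 1 gene, 42 were called in that pair and 71 with the block. Of the other 120 members, 70 were called and 114 with the block.

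For description, 42 of the 76 named members were placed in 9 classes by what their products are known to be or do. The classes were formed after the names were seen and carry no test of their own. Between S58-2 and S82-2, 57.1% of all 196 members were called, and 94.4% with the block. Over all tested probe sets the shares were 2.75% and 16.2%. Each class count for this pair below stands beside these shares, and whether a class differs from the other members was not tested. The other 34 named members belong to none of them.

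The regulators of defence signalling were 2 members. AT3G48080 encodes EDS1B, a lipase-like immune regulator. It read 5.33 and 5.18 in S58-2, 5.79 and 4.99 in S15-118, 4.59 and 3.95 in S14-150, 3.13 and 2.45 in S82-2, 5.70 and 4.36 in aba3-1, and 4.37 and 3.11 in wt. The S82-2 arrays lay under the wt array of the same number in both pairs, and under all arrays of the other lines. The difference of 2.47 log2 between S58-2 and S82-2 (SE 0.56) was not called without the block (limma, adjusted p = 0.0684) and was called with it (limma, adjusted p = 0.00022).

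AT5G52810 encodes SARD4, a reductase in the synthesis of pipecolic acid, which carries systemic resistance. It read 6.45 and 6.65 in S58-2, 6.57 and 5.57 in S15-118, 5.80 and 4.78 in S14-150, 4.73 and 4.19 in S82-2, 7.16 and 5.36 in aba3-1, and 5.17 and 4.08 in wt. S82-2 stood with wt, and the spread of aba3-1 between its arrays was wider than its mean distance from wt. S58-2 minus S82-2 was 2.09 log2 (SE 0.66), with a limma adjusted p of 0.175 and, with the block, of 0.00364.

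Receptors and kinases that perceive microbes or relay that perception were 7 members, with a median S58-2 minus S82-2 of 2.21 log2. Between these lines 4 of the 7 were called, and all 7 with the block. AT1G35710, a leucine-rich repeat receptor kinase, read 8.83 and 8.29 in S58-2, 8.45 and 7.75 in S15-118, 7.25 and 6.46 in S14-150, 5.62 and 4.27 in S82-2, 8.54 and 7.03 in aba3-1, and 6.75 and 5.27 in wt. Its S82-2 mean was more than 1 log2 under the wt mean, which 4 of the 196 members showed. S58-2 was 3.62 log2 higher than S82-2 (SE 0.70, limma adjusted p = 0.0368). S14-150 was 1.91 higher than S82-2, a difference called only with the block (limma, adjusted p = 0.0067) and lost without S82-2 array 1.

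AT1G51890, another leucine-rich repeat receptor kinase, was 2.35 log2 higher in S58-2 than in S82-2 (limma, adjusted p = 0.0249). AT1G66880, a receptor-like kinase, was 2.70 higher in the same comparison (limma, adjusted p = 0.0141), and AT3G22060, a secreted relative of cysteine-rich receptor kinases, was 2.21 higher (limma, adjusted p = 0.0356). The TIR-domain genes AT1G66090 and AT1G72900, of the kind found in intracellular receptors, had differences of 2.09 and 1.61 that were called only with the block (limma, adjusted p = 0.00254 and 0.00646).

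Calcium and ion signalling was represented by 6 members, of which 4 were called between S58-2 and S82-2, and 6 with the block. AT3G47480, an EF-hand calcium-binding protein, read 7.38 and 8.25 in S58-2, 7.77 and 6.75 in S15-118, 5.62 and 5.40 in S14-150, 4.19 and 3.90 in S82-2, 7.54 and 6.02 in aba3-1, and 4.74 and 3.96 in wt. All S58-2 and S15-118 arrays were above all S14-150 arrays, which were above all S82-2 arrays. Of the members with a gene name it had the largest called difference between S58-2 and S82-2, 3.77 log2 (SE 0.56, limma adjusted p = 0.0135), and between S15-118 and S82-2 it was 3.22 (SE 0.56, limma adjusted p = 0.0361).

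GLR2.7, a glutamate receptor-like channel, was 2.71 log2 higher in S58-2 than in S82-2 (limma, adjusted p = 0.00734). GLR1.4, of the same channel family, read 4.59 and 4.52 in S58-2 against 3.02 and 3.03 in S82-2 (limma, adjusted p = 0.00616). AT3G01830, an EF-hand protein, was 2.87 higher (limma, adjusted p = 0.0375). AT5G37740, a C2-domain protein, had the smallest difference of the class, 1.14, called only with the block (limma, adjusted p = 0.0209).

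**Figure D4:**
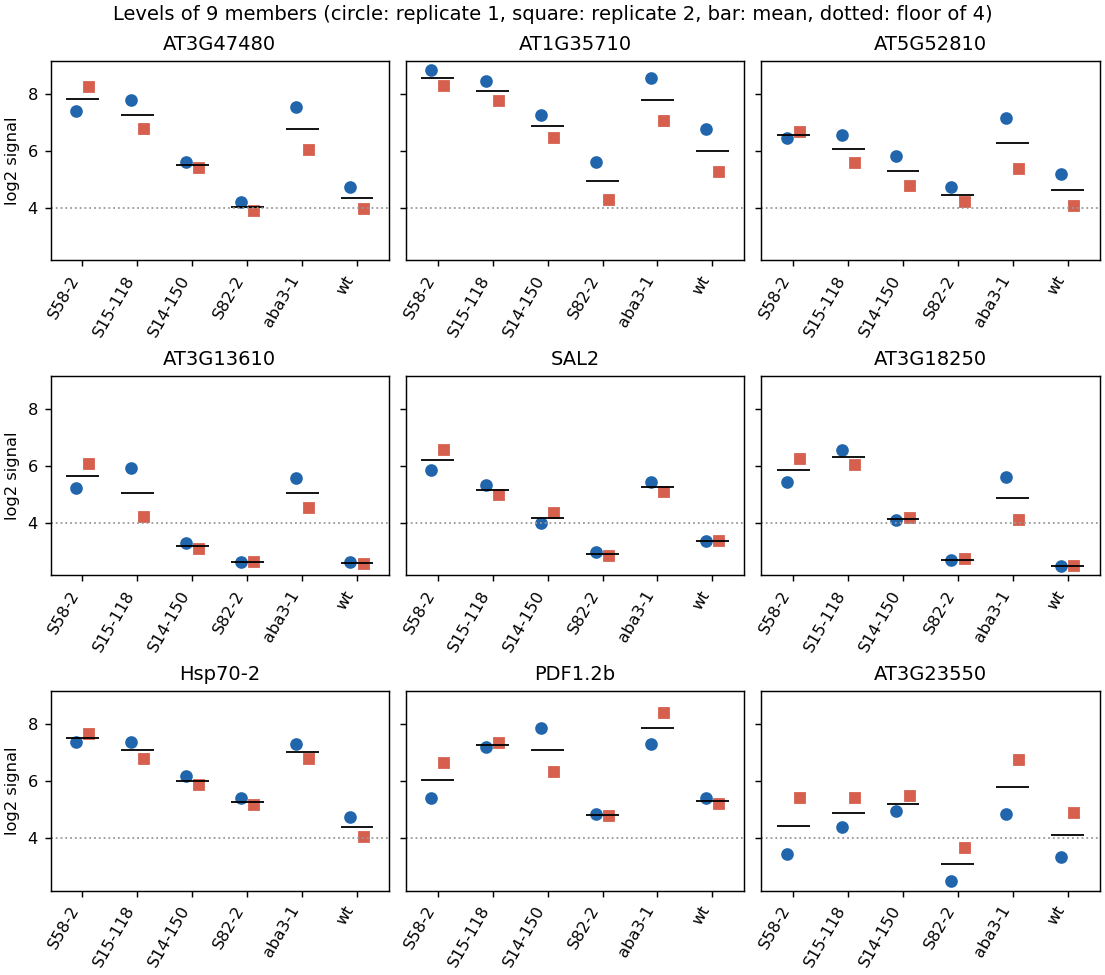
Log2 signal of 9 named members on array 1 (circle) and array 2 (square) of each group, with the group mean as a bar, the level of 4 dotted, and S58-2, S15-118, S14-150, S82-2, aba3-1 and wt from left to right. In AT3G47480 the S82-2 arrays read 4.19 and 3.90, near the wt arrays at 4.74 and 3.96. In PDF1.2b the S58-2 arrays, at 5.40 and 6.64, lie below the aba3-1 arrays at 7.31 and 8.37.

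Secreted defence proteins were the class with the smallest median difference between S58-2 and S82-2. Of its 6 members 0 were called between S58-2 and S82-2, where 1, AT5G55450, was called with the block, and the median difference was 0.95 log2. The class median was 1.25 for S15-118 minus S82-2 and 1.06 for S14-150 minus S82-2. In that last pair it was not the smallest, since specialised metabolism and detoxification had a median of 0.64. AT5G55450 read 10.05 and 9.53 in S58-2, 9.95 and 8.47 in S15-118, 8.76 and 7.52 in S14-150, and 7.30 and 5.74 in S82-2. It was 3.27 higher in S58-2 than in S82-2 (SE 1.01, limma adjusted p = 0.168, and 0.000316 with the block). The difference between the classes themselves was not tested.

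PDF1.2b, a plant defensin of the jasmonate and ethylene branch, did not follow the order of most members. It read 5.40 and 6.64 in S58-2, 7.19 and 7.32 in S15-118, 7.84 and 6.32 in S14-150, 4.83 and 4.77 in S82-2, 7.31 and 8.37 in aba3-1, and 5.39 and 5.19 in wt. S58-2 array 1 read about the same as the wt arrays, and S14-150 lay close to S15-118. S58-2 minus S82-2 was 1.22 log2 (SE 0.57, limma adjusted p = 0.397, and 0.139 with the block), and S58-2 minus S14-150 was -1.06 (SE 0.57, limma adjusted p = 0.801). Its probe set is of the x type and can also read near-identical defensin copies, so the gene behind this signal is uncertain.

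AT2G43590, of the chitinase family, read 4.35 and 4.34 in S58-2, 5.43 and 4.34 in S15-118, 4.67 and 4.35 in S14-150, 3.42 and 3.53 in S82-2, 5.27 and 5.34 in aba3-1, and 2.98 and 3.06 in wt. Here S58-2 lay about 1 log2 under aba3-1. AT3G16530, a legume-type lectin, read 6.51 and 8.44 in S58-2, 7.60 and 8.38 in S15-118, 7.97 and 8.00 in S14-150, 6.10 and 7.69 in S82-2, 7.93 and 9.18 in aba3-1, and 6.54 and 8.18 in wt. Array 2 was the higher one in all 6 groups, the groups overlapped, and S58-2 minus S82-2 was 0.58 (SE 0.83, limma adjusted p = 0.901). AT5G01870, of the lipid-transfer family, had its lowest mean in S14-150 rather than in S82-2, with 4.54 and 3.29 in S14-150 against 4.32 and 4.60 in S82-2, which overlap.

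Specialised metabolism and detoxification held 9 members, of which 4 were called between S58-2 and S82-2, and 9 with the block. AT3G13610 read 5.24 and 6.06 in S58-2, 5.92 and 4.19 in S15-118, 3.29 and 3.09 in S14-150, and 2.62 and 2.62 in S82-2. S14-150 and S82-2 were both under the level of 4, and S58-2 was 3.03 log2 higher than S82-2 (SE 0.56, limma adjusted p = 0.0306). CYP71B23, a cytochrome P450, was 2.81 higher (limma, adjusted p = 0.0194), and UGT87A2, a UDP-glucosyltransferase, was 2.37 higher (limma, adjusted p = 0.0163).

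AT3G23550, a MATE-type efflux transporter, was another exception. It read 3.45 and 5.40 in S58-2, 4.37 and 5.39 in S15-118, 4.93 and 5.46 in S14-150, 2.49 and 3.65 in S82-2, 4.83 and 6.73 in aba3-1, and 3.34 and 4.87 in wt. S14-150 was its highest line, and its S82-2 arrays lay under wt in both pairs. S14-150 minus S82-2 was 2.13 log2 (SE 0.88), called only with the block (limma, adjusted p = 0.0101) and not without S82-2 array 1. BGLU25, a beta-glucosidase, was among the 3 named members with the highest S82-2 minus wt difference, with 6.37 and 5.94 in S82-2, 7.46 and 6.52 in aba3-1 and 5.85 and 4.83 in wt. S58-2 minus S82-2 was 1.03 for BGLU25 (limma, adjusted p = 0.322, and 0.0176 with the block).

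SAL2 was grouped with the redox gene AT5G38900 and the mitochondrial gene NDB2. These 3 members were all called between S58-2 and S82-2, with a median difference of 3.30 log2. SAL2, a phosphatase related to SAL1, read 5.84 and 6.57 in S58-2, 5.34 and 4.99 in S15-118, 3.98 and 4.33 in S14-150, 2.96 and 2.82 in S82-2, 5.45 and 5.08 in aba3-1, and 3.35 and 3.37 in wt. No line overlapped another. SAL2 was the named gene called between S58-2 and S14-150 without the block, with a difference of 2.05 (SE 0.27, limma adjusted p = 0.0496). It was 3.32 higher in S58-2 than in S82-2 (SE 0.27, limma adjusted p = 0.00149). Both S82-2 readings of SAL2 lay under the level of 4, so the size of that difference rests on signal near background.

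AT5G38900, a protein with a thioredoxin fold, read 5.45 and 7.04 in S58-2, 6.05 and 6.0 in S15-118, 3.75 and 4.83 in S14-150, 2.94 and 2.95 in S82-2, 5.20 and 5.51 in aba3-1, and 3.10 and 3.13 in wt. S15-118 was 3.08 log2 higher than S82-2 (SE 0.50, limma adjusted p = 0.0278). Both S82-2 readings of AT5G38900 lay under the level of 4, so the size of this difference rests on signal near background. NDB2, an external NAD(P)H dehydrogenase of mitochondria, was 1.75 higher in S58-2 than in S82-2 (limma, adjusted p = 0.03).

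Protein folding and turnover held 4 members, of which 3 were called between S58-2 and S82-2, and 4 with the block. Hsp70-2 read 7.36 and 7.64 in S58-2, 7.37 and 6.77 in S15-118, 6.18 and 5.84 in S14-150, 5.41 and 5.14 in S82-2, 7.28 and 6.78 in aba3-1, and 4.73 and 4.04 in wt. Both S82-2 arrays stood above both wt arrays, so that Hsp70-2 was among the 3 named members with the highest S82-2 minus wt value. It was 2.23 log2 higher in S58-2 than in S82-2 (SE 0.32, limma adjusted p = 0.0114). SBT3.5, a subtilisin-like protease, was 1.41 higher (limma, adjusted p = 0.0182), and AT3G51330, of the aspartyl protease family, was 2.34 higher (limma, adjusted p = 0.0233).

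The AAA-type ATPases were 3 members, of which AT5G17760 was called between S58-2 and S82-2 and all 3 with the block. AT5G17760 read 6.51 and 7.63 in S58-2, 7.03 and 6.71 in S15-118, 5.68 and 6.18 in S14-150, and 4.35 and 4.40 in S82-2, with a S58-2 minus S82-2 difference of 2.70 log2 (SE 0.37, limma adjusted p = 0.00933). AT1G43910 read 6.24 and 7.63 in S58-2, 6.65 and 7.90 in S15-118, 5.52 and 6.73 in S14-150, and 4.30 and 4.42 in S82-2. Its difference between S58-2 and S82-2 was 2.58 (SE 0.57, limma adjusted p = 0.0591, and 0.00123 with the block). The ankyrin-repeat proteins AT4G03450 and AT1G10340 were 2.82 and 2.77 higher in S58-2 than in S82-2 (limma, adjusted p = 0.0248 and 0.0266).

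**Figure D5:**
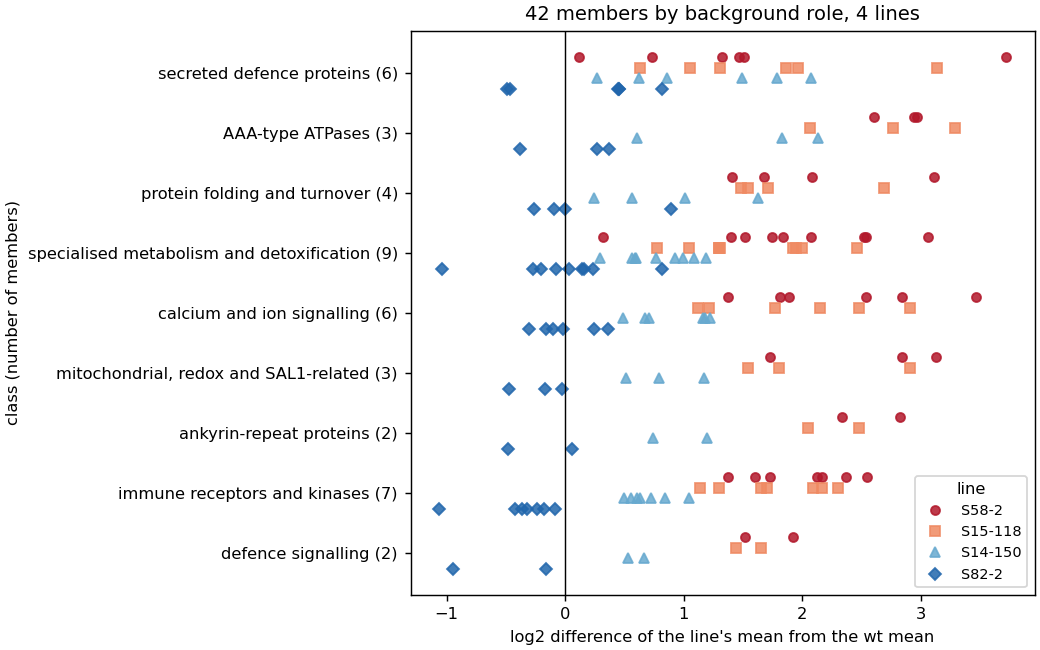
Log2 difference of each line's mean from the wt mean for the 42 members in the 9 classes, 1 point per member and line. The S82-2 points lie around 0 in most classes, and the S58-2 points of the secreted defence proteins have the lowest class median, 1.40.

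Several members outside the classes were among those with the largest differences between lines. AT1G65500 read 6.25 and 6.58 in S58-2, 5.70 and 5.31 in S15-118, 3.84 and 4.26 in S14-150, 3.15 and 2.80 in S82-2, 5.16 and 4.07 in aba3-1, and 2.61 and 2.36 in wt. Both S58-2 arrays were above both aba3-1 arrays, and S58-2 was 3.44 log2 higher than S82-2 (SE 0.36, limma adjusted p = 0.00323). Both S82-2 readings of AT1G65500 lay under the level of 4, so the size of this difference rests on signal near background. AT5G52750, with a heavy-metal-binding domain, read 7.85 and 8.63 in S58-2, 7.91 and 7.90 in S15-118, 6.66 and 6.74 in S14-150, 5.13 and 4.66 in S82-2, 7.58 and 6.98 in aba3-1, and 5.69 and 4.76 in wt. It was 3.35 higher in S58-2 than in S82-2 (SE 0.38, limma adjusted p = 0.0049). With the block, S14-150 was also above S82-2, by 1.81 (limma, adjusted p = 0.0265), a call lost without S82-2 array 1.

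AT3G18250 read 5.45 and 6.24 in S58-2, 6.56 and 6.04 in S15-118, 4.10 and 4.16 in S14-150, 2.70 and 2.72 in S82-2, 5.62 and 4.11 in aba3-1, and 2.47 and 2.48 in wt. It had the largest called difference between S15-118 and S82-2 among members with a gene name, 3.59 log2 (SE 0.46, limma adjusted p = 0.0116). Both of its S82-2 readings lay far under the level of 4, so the size of this difference rests on signal near background. AT2G39210, a transporter-like protein of the major facilitator family, read 7.37 and 8.68 in S58-2, 8.13 and 7.95 in S15-118, 6.31 and 6.69 in S14-150, 5.01 and 4.75 in S82-2, 7.62 and 7.28 in aba3-1, and 5.41 and 4.81 in wt. S15-118 was 3.16 higher than S82-2 (SE 0.41, limma adjusted p = 0.0119).

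AT1G19020 read 7.22 and 8.26 in S58-2, 7.58 and 7.61 in S15-118, 6.59 and 6.14 in S14-150, 4.52 and 4.91 in S82-2, 7.08 and 6.85 in aba3-1, and 3.91 and 5.11 in wt. AT1G13470 read 7.86 and 7.51 in S58-2, 7.47 and 6.49 in S15-118, 6.43 and 5.49 in S14-150, and 4.57 and 3.86 in S82-2. S58-2 was 3.03 log2 higher than S82-2 for AT1G19020 (SE 0.44, limma adjusted p = 0.0129). For AT1G13470 the difference of 3.47 was called only with the block (SE 0.79, limma adjusted p = 0.0684, and 0.000207 with the block).

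A few probe sets without a gene name broke the pattern and were singled out after their values were seen. Probe set 245688_at was the one member with a higher mean in S82-2 than in aba3-1, with 8.30 and 8.40 in S82-2 against 8.33 and 7.81 in aba3-1, beside 6.68 and 6.76 in wt. Probe set 250476_at was lowest in S14-150, with 2.54 and 2.68 in S14-150 against 3.41 and 4.27 in S82-2 and 2.50 and 2.50 in wt. Probe set 256012_at, the 1 member called between S15-118 and S14-150 without the block, read 5.17 and 5.16 in S15-118 against 2.73 and 2.66 in S14-150. That difference was 2.47 log2 (SE 0.28, limma adjusted p = 0.043). Probe set 256012_at passed the level filter only with the help of line arrays, so its call partly follows from that filter. Both S14-150 readings lay far under the level of 4, so the size of the difference rests on signal near background.

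Probe set 255341_at separated S58-2 from S15-118. It read 6.88 and 7.23 in S58-2, 4.97 and 4.90 in S15-118, 4.36 and 4.03 in S14-150, 3.68 and 2.91 in S82-2, 6.05 and 5.25 in aba3-1, and 3.15 and 3.0 in wt. S58-2 was 2.12 log2 higher than S15-118 with the block (limma, adjusted p = 0.0115). Besides 245688_at and 250476_at, the members that stayed at least 1 log2 above wt in S82-2 were 264400_at, 257460_at and 261895_at.

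Pathway genes outside the members came from 9 lists of defence, stress and ABA genes. Few of their loci have a paired probe set, and 17 were tested, of which AT5G52810 and PDF1.2b are members. In the list of salicylic acid and systemic resistance, 4 of 32 loci were tested: SAG101, AT5G52810, UGT76B1 and GRX480. Between S58-2 and S82-2, 1 of the 4 was higher, and 4 with the block, the member AT5G52810 among them. Over all tested probe sets 2.22% were called higher in this pair, and 8.42% with the block. In either direction the shares were 2.75% and 16.2%. The counts of the other lists for this pair stand beside the same shares. SAG101, a partner of EDS1, was the one called without the block, at 1.33 log2 (SE 0.21, limma adjusted p = 0.0182). It had missed the choice of members, with aba3-1 minus wt differences of 0.98 and 0.29 in the pairs.

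Of 2 WRKY transcription factor genes tested, 1, WRKY53, was higher in S58-2 than in S82-2, and with the block WRKY6 too. Of 3 receptor and kinase genes tested, 1, AT4G08850, was higher, and with the block BIK1 and SD1-29 too. WRKY53 and AT4G08850 are among the probe sets set aside by the rule. BIK1, a kinase that relays pattern recognition, had a difference of 1.23 log2 (SE 0.35, limma adjusted p = 0.131, and 0.0092 with the block). Of 4 ABA-responsive genes tested, 0 were called between S58-2 and S82-2 without the block, where HIS1-3 had an unadjusted p of 0.00266. With the block HIS1-3 was higher in S58-2 and COR15A lower. COR15A, a cold-regulated chloroplast protein, was 1.99 and 2.10 log2 lower in aba3-1 than in wt in the 2 pairs.

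Of 3 jasmonate and ethylene genes tested, 0 were called between S58-2 and S82-2 without the block, where THI2.2, a thionin, had an unadjusted p of 0.00433. With the block THI2.2 had an S58-2 minus S82-2 difference of -0.97 log2 (limma, adjusted p = 0.0124). In the list of membrane and pattern-triggered immunity, PUB24, a ubiquitin ligase, was the 1 gene tested, with a difference of 1.16 called only with the block (limma, adjusted p = 0.0173). No gene of the camalexin, oxidative stress and senescence lists was tested.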

How the data were processed

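The deposited values are log2 signals of ATH1 probe sets, 1 column per array. Per the submitters' processing notes the authors used GCRMA; its version is not given in the sources used here. GCRMA corrects background by probe sequence, normalizes by quantiles and summarises probes, which sets dim probe sets close to a common low value. The table does not state the log base, which was taken as 2. Extracted RNA was 5.1 to 15 µg per sample and 20 µg of amplified RNA was labelled, per the labels. Of 22810 probe sets, 64 controls were left out, and of the remaining 22746 those above 4 on at least 2 arrays were tested, 11561 in all. The filter keeps probe sets that pass through a group in which they are high.

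Group means were fitted over all 12 arrays with limma 3.58.1 (lmFit, contrasts.fit, eBayes) in R 4.3.3, with adjustment over all tested probe sets. The fit was tested on simulated data. The main fit has no block. The replicate numbers pair the arrays, since in all 15 pairs of groups the deviations from group means correlated between equal numbers (r from 0.708 to 0.872 across probe sets). No label says that replicates are separate plants, so the spread behind each p-value is that between these samples and may be technical, and 2 arrays per group limit the precision. Members, lists and classes were chosen with earlier results of these data known.

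Genes named were, among members with exactly 1 gene, the 12 with the largest mean aba3-1 minus wt difference, list members, up to 4 called members per pair of lines and direction with the largest difference and no overlap, and the 3 highest in S82-2 and 3 lowest in S58-2 relative to wt. The 3 members just inside the threshold and the 3 probe sets just outside it were named too. Other class members were named to describe the classes, after their values were seen. Gene names come from the platform annotation, updated with a RefSeq gene table (TAIR10.1). Sequences were not used here, so promoter motifs were not described. Alternatives were the block, the 8 line arrays alone, other filters, quantile normalization, other thresholds and leaving out each line array.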

Additional observations from a re-analysis of the deposited data

How the results depend on the processing

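The 9 differences between lines of members named by the rule were picked as called and without overlap of the arrays. Their direction could therefore hardly reverse on refitting, and it was kept in the 198 values recomputed. All 9 stayed called with the replicate block. Without the block, between 1 and 8 of the 9 lost their call on leaving out 1 line array, 4 with no filter and 2 with the line arrays alone. With the block and without S14-150 array 1, SAL2 between S58-2 and S14-150 lost it (limma, adjusted p = 0.0579). The replicate block raised the counts of members called in every pair: to 185 for S58-2 with S82-2, 182 for S15-118 with S82-2, 53 for S14-150 with S82-2, 134 for S58-2 with S14-150, 34 for S15-118 with S14-150, 2 for S58-2 with S15-118, and 182 in the F test. With the block and the 8 line arrays alone the counts in the same order were 180, 177, 48, 124, 28 and 1, and 174 in the F test, beside 11.7%, 7.82%, 1.04%, 3.16%, 0.467%, 0.0605% and 7.08% of tested probe sets called. With the 8 line arrays alone and no block they were 92 for S58-2 with S82-2 and 53 for S15-118 with S82-2, beside 1.70% and 0.865%. For S58-2 with S14-150, S15-118 with S14-150 and the F test they were 1, 0 and 31, beside 0.0346%, 0.0173% and 0.441%. With no filter on dim probe sets, which tests more of them, they were 42 for S15-118 with S82-2, 2 for S58-2 with S14-150, 0 for S15-118 with S14-150 and 36 in the F test, beside 0.475%, 0.0396%, 0.0264% and 0.541%. Quantile normalization gave 15 for S58-2 with S14-150, beside 0.242%. The 184 members that passed the level filter on the aba3-1 and wt arrays alone were an alternative chosen after seeing the data. Without the block, 0 of them were called higher for S15-118 with S14-150, beside 0.0519% of tested probe sets. In the order above, 105, 68, 0, 5 and 0 were called higher for the other pairs, beside 2.22%, 1.13%, 0.00865%, 0.121% and 0%. A floor of 5 moved no count by over 1.5 times. Apart from the fewer arrays or further probe sets, the cause of these shifts was not tested.

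A line left with 1 array is assumed to vary like the other groups. Leaving out 1 line array at a time, without the block, gave 29 to 101 members for S58-2 with S82-2, 1 to 87 for S15-118 with S82-2, 0 in every case for S14-150 with S82-2 and for S58-2 with S15-118, 0 to 37 for S58-2 with S14-150, 0 to 3 for S15-118 with S14-150, and 1 to 81 in the F test. With the block, an alternative chosen after seeing the data, the ranges were 165 to 187, 130 to 187, 0 to 112, 22 to 177, 0 to 112 for S15-118 with S14-150, 0 to 19 for S58-2 with S15-118, and 148 to 189 in the F test. At the ends of these blocked ranges, 6.0% and 22.9%, 3.39% and 15.9%, 0.0692% and 3.64%, 0.329% and 12.4%, 0.0346% and 2.23%, 0.0173% and 0.519%, and 4.04% and 18.7% of tested probe sets were called. Without the block, at the ends of the ranges in the same order, 0.415% and 2.53%, 0.0173% and 1.76%, 0.00865% and 0.545% for S58-2 with S14-150, 0% and 0.0692% for S15-118 with S14-150, and 0.0432% and 1.44% in the F test were called. The highest count came without S58-2 array 1 in each of these ranges that rises above 0. In the pairs of lines that do not include S58-2, leaving out S58-2 array 2 gave the same highest count. The rule would give 288 members at a threshold of 0.8 log2 and 105 at 1.5. In wt 106 of 196 members averaged under 4.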
